A study of Mus musculus with 6 samples.

Results

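Potassium channel genes were taken from the deposited count table as every protein-coding gene whose symbol begins with Kcn, with 3 such genes left out by the selection rule. That gave 91 genes among the 54532 of the table, sorted into classes by family name. The libraries were 6 bulk RNA-seq libraries of primary mouse aortic endothelial cells (MAEC), 3 from female and 3 from male mice, all with the genotype label Oct4 KO. In these mice the pluripotency factor OCT4 was deleted in endothelial cells only, by a Cre or other driver not named in the labels. Every group received the same serum-containing medium with heparin and growth factors and no treatment, and the age of the mice and the number of mice per library are not given. Wild-type littermate cells were not analysed here, so the comparison is of female with male cells within the knockout genotype. No label tells if the 3 libraries of 1 sex stem from different mice or dishes, and the spread that the p-values rest on may therefore be technical.

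Potassium channels let potassium ions leave or enter a cell down their gradient and so set the membrane potential. In endothelial cells that potential governs the driving force for calcium entry, and the calcium in turn acts on nitric oxide release. Voltage-gated channels open on depolarisation, inward rectifiers hold the resting potential, tandem-pore (K2P) channels carry a background leak, and calcium-activated channels couple calcium signals to hyperpolarisation. Inward rectification by Kcnj2 and calcium-activated currents from Kcnn3 and Kcnn4 are the ones best known in native endothelium, while the large-conductance channel Kcnma1 with its partner Kcnmb1 is a smooth muscle channel.

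All these channels share a short pore signature, the selectivity filter, and its coding sequence is shown for the genes on which the results turn. Each line gives 45 bases of the coding strand, 5′ to 3′, read from GENCODE M21 transcripts on GRCm38. Capitals mark the 5 codons found in frame by their pattern, a threonine or serine codon, any codon, GGN, a tyrosine or phenylalanine codon, and GGN.
Kcnj15: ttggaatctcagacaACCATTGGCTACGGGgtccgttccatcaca
Kcnj2: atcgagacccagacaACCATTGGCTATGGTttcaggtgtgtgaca
Kcna3: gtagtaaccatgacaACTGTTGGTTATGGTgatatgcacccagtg
Kcnc2: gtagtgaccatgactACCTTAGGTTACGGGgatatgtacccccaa
Kcnn4: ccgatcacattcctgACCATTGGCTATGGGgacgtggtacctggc
Kcnh1: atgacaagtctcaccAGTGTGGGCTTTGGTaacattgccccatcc
Kcnh2: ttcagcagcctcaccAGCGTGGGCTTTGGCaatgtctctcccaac
Kcnk2, first pore: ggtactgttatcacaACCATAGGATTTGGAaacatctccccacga
Kcnk2, second pore: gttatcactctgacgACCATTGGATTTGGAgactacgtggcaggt
Kcnk10, first pore: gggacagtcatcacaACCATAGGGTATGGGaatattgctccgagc
Kcnk10, second pore: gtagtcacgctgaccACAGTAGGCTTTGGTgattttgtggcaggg
The fourth marked codon was TAC or TAT, for tyrosine, in Kcnj15, Kcnj2, Kcna3, Kcnc2, Kcnn4 and the first pore of Kcnk10. It was TTT, for phenylalanine, in Kcnh1, Kcnh2, both pores of Kcnk2 and the second pore of Kcnk10. The K2P genes carried the pattern in 2 places, as their tandem-pore name says. The Kcnj15 stretch lies at chr16:95295965-95296009 on the plus strand and that of Kcnh2 at chr5:24325540-24325584 on the minus strand, each within 1 coding exon.

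Total counts were 19299742 to 23064738 per library, and a count of 0 allows at most 0.123 to 0.154 CPM (3 counts). CPM is the read count scaled to a common library size, here the TMM-scaled effective one. Such limits cover counting error only. The cells carried little RNA of endothelial markers: of 12 listed, 10 were under 1 CPM in all 6 libraries, and Emcn, Cldn5 and Robo4 had 0 counts in every library. The summed level of those 12 was 4.76 to 7.34 CPM for females and 4.99 to 5.68 CPM for males. Fibroblast markers summed to 14409 to 16069 CPM in female and 6613 to 7172 CPM in male libraries. The label endothelial is therefore not borne out by these markers in either sex.

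Most potassium channel genes were silent or barely read. Of the 91 genes, 25 had 0 counts in all 6 libraries, a further 41 had too few counts to test, and 25 (27.5%) passed the low-count filter, against 57.4% of all protein-coding genes. The filter asked for about 10 counts in at least 3 libraries. The genes at 0 included neuronal channels such as Kcnq3 and Kcna2, the pancreatic and cardiac ATP-sensitive pore gene Kcnj11, the kidney channel gene Kcnj1, and the G-protein-gated rectifiers Kcnj3, Kcnj5 and Kcnj6.

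**Figure D1:**
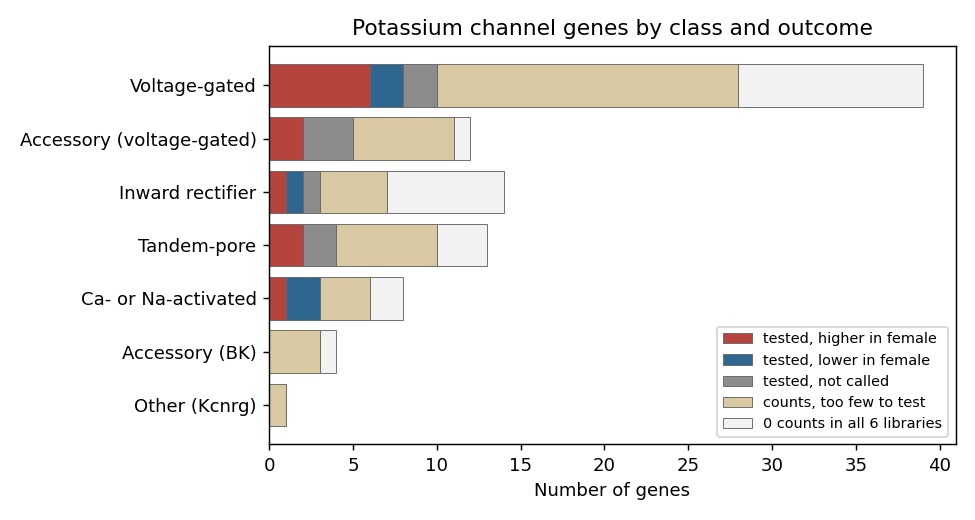
Number of potassium channel genes (x axis) in each class, split by outcome: tested and higher, lower or not called in female cells, read too little to test, or at 0 counts in all 6 libraries. Of 39 voltage-gated genes 10 could be tested, and none of the 4 Kcnmb accessory genes could.

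Among the 25 that were tested, female cells had 12 higher and 5 lower at an adjusted p under 0.05 (edgeR quasi-likelihood test, Benjamini-Hochberg over 14814 genes), and 8 were not called. Over all genes tested 60.7% were called, 30.9% higher and 29.8% lower, so the 68.0% of tested channel genes called is near that background. A change of at least 2-fold was called in 14 of the 25, 11 higher and 3 lower, where 23.6% of all tested genes reached it (13.7% higher and 9.88% lower). For 19 of the 25 every female library lay on the same side of every male library, against 67.1% of all tested genes. The median log2 fold change of the 25 was 0.75, and that of all tested genes was -0.01. These counts cannot stand for the family, since 4 genes passed the filter in all 3 female libraries but not all male ones (Kcna3, Kcna6 and Kcnc2 among them) and 1 the other way (Kcna4), so they had to differ. Of the 18 that passed in all 3 libraries of both sexes, 8 were higher, 4 lower and 6 not called.

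**Figure D2:**
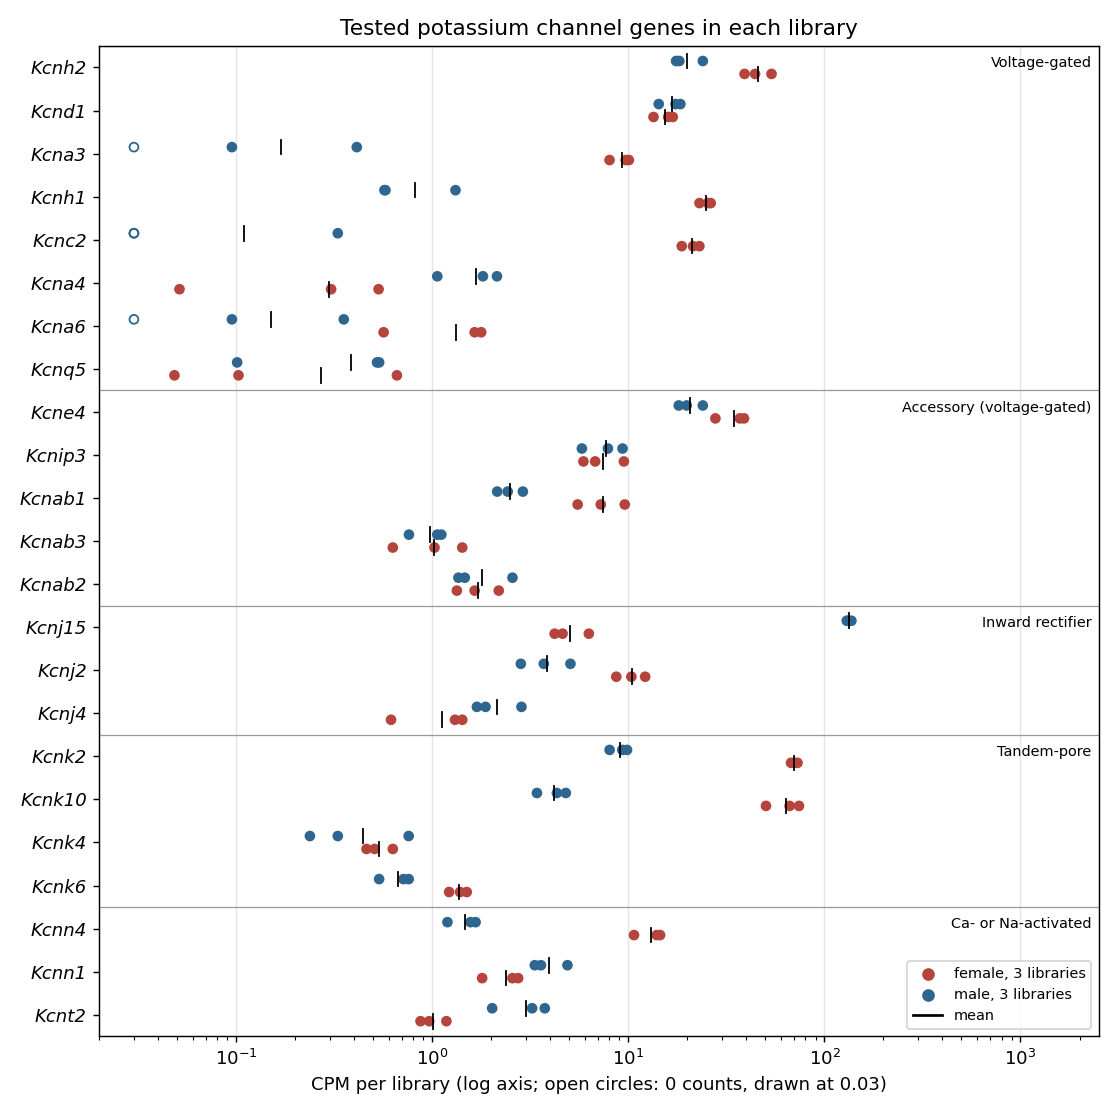
CPM (x axis, log scale) of 23 of the 25 tested potassium channel genes in every library, female in red and male in blue, with a bar at the mean of 3; an open circle drawn at 0.03 is a count of 0. Kcnj15 sits near 133 CPM in all 3 male libraries and near 5.03 in the female ones, while Kcnk2 and Kcnk10 lie far to the right in female libraries.

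The voltage-gated pore genes held the widest differences, and the largest were channels read almost only in female cells. Kcnc2 and Kcna3 passed the filter through the female libraries alone, so their direction was largely fixed beforehand. Kcnc2 (mm10, chr10:112271121-112467024), a fast delayed rectifier of rapidly firing neurons, was at 21.35, 23.001 and 18.70 CPM in the female libraries. In the male libraries it had 0, 0 and 8 counts, the last equal to 0.329 CPM. Its log2 fold change of 7.36 ± 0.40 (SE, n = 3 per sex; edgeR adjusted p = 8.7e-11) rests on 1 male library, and without male replicate 3 it was 11.73, against no male counts at all. Kcna3 (chr3:107036169-107038070), a Shaker-type channel gene known from lymphocytes, was at 10.05, 9.68 and 8.01 CPM in female libraries and had 2, 0 and 10 counts in male ones. Every female value lay far above every male value, with a log2 fold change of 5.62 ± 0.45 (edgeR adjusted p = 1.37e-08), or 7.39 without male replicate 3. With limma-voom the log2 fold changes of Kcnc2 and Kcna3 were 8.46 and 6.40.

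Both ether-a-go-go type genes that could be tested were higher in female cells. Kcnh1 (chr1:192190774-192510159), the channel gene also known as Eag, was at 23.04, 26.28 and 25.44 CPM in female libraries and at 0.569, 1.31 and 0.576 in male libraries. The groups were far apart, with a log2 fold change of 4.95 ± 0.24 (edgeR adjusted p = 1.45e-11). Kcnh2 (chr5:24319589-24351604), which encodes the ERG channel of cardiac repolarisation, was read in both sexes, at 39.1, 53.7 and 44.2 CPM (female) and 23.9, 17.5 and 18.2 CPM (male). All 3 female values were above all 3 male values (log2 1.20 ± 0.14, edgeR adjusted p = 1.14e-06). Per kilobase of gene model it was the highest voltage-gated pore gene in either sex, at 9.43 CPM per kilobase in female and 4.10 in male cells. The remaining Kcnh genes were not testable, and the highest count of any was the 16 of Kcnh7 in female replicate 3.

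Other Shaker-type genes were read at lower levels. Kcna6 was at 1.64, 0.564 and 1.77 CPM in female and 0.0948, 0.353 and 0 CPM in male libraries (log2 3.18 ± 0.79, edgeR adjusted p = 0.00218). Its log2 fold change was 4.71 without male replicate 2 and 2.55 without male replicate 3. The ranges did not meet, although 39.6% of the Kcna6 exonic bases overlap the antisense gene Gm26673, itself at 0 counts in all 6 libraries. Kcna4, a rapidly inactivating channel gene, stood higher in male libraries at 2.13, 1.06 and 1.81 CPM, against 0.531, 0.0512 and 0.304 in female ones (log2 -2.46 ± 0.60, edgeR adjusted p = 0.00199). Without female replicate 1 its log2 fold change was -3.18. The direction of Kcnc2, Kcna3, Kcna6 and Kcna4 was largely fixed by the filter, which each passed in full in 1 sex only.

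Kcnd1 (chrX:7822289-7838280), an A-type channel gene on the X chromosome, was at 15.9, 13.4 and 16.8 CPM (female) and 14.3, 18.4 and 17.4 CPM (male), fully overlapping (log2 -0.12 ± 0.15, edgeR adjusted p = 0.51). The low-level gene Kcnq5 was not called either, at 0.270 ± 0.338 and 0.386 ± 0.247 CPM.

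Among the accessory genes of voltage-gated channels, the single-span subunit gene Kcne4 was the most abundant. Kcne4 (chr1:78816758-78820028), whose product can inhibit voltage-gated channels including that of Kcna3, was at 37.0, 27.8 and 38.9 CPM (female) and 23.9, 18.1 and 19.8 CPM (male). It was higher in every female library, by a log2 fold change of 0.75 ± 0.14 (edgeR adjusted p = 0.000206). Kcnab1, a cytoplasmic beta subunit gene, was at 5.51, 7.22 and 9.58 CPM (female) and 2.89, 2.42 and 2.14 CPM (male) (log2 1.58 ± 0.26, edgeR adjusted p = 4.64e-05). The other 2 beta subunit genes were not called and overlapped between the sexes, Kcnab2 at 1.72 ± 0.429 and 1.79 ± 0.667 CPM and Kcnab3 at 1.02 ± 0.396 and 0.976 ± 0.190. Kcnip3, which encodes a calcium-binding partner of A-type channels, was at 7.38 ± 1.87 CPM in cells of females and 7.66 ± 1.78 in those of males (log2 -0.05 ± 0.22, edgeR adjusted p = 0.849).

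**Figure D3:**
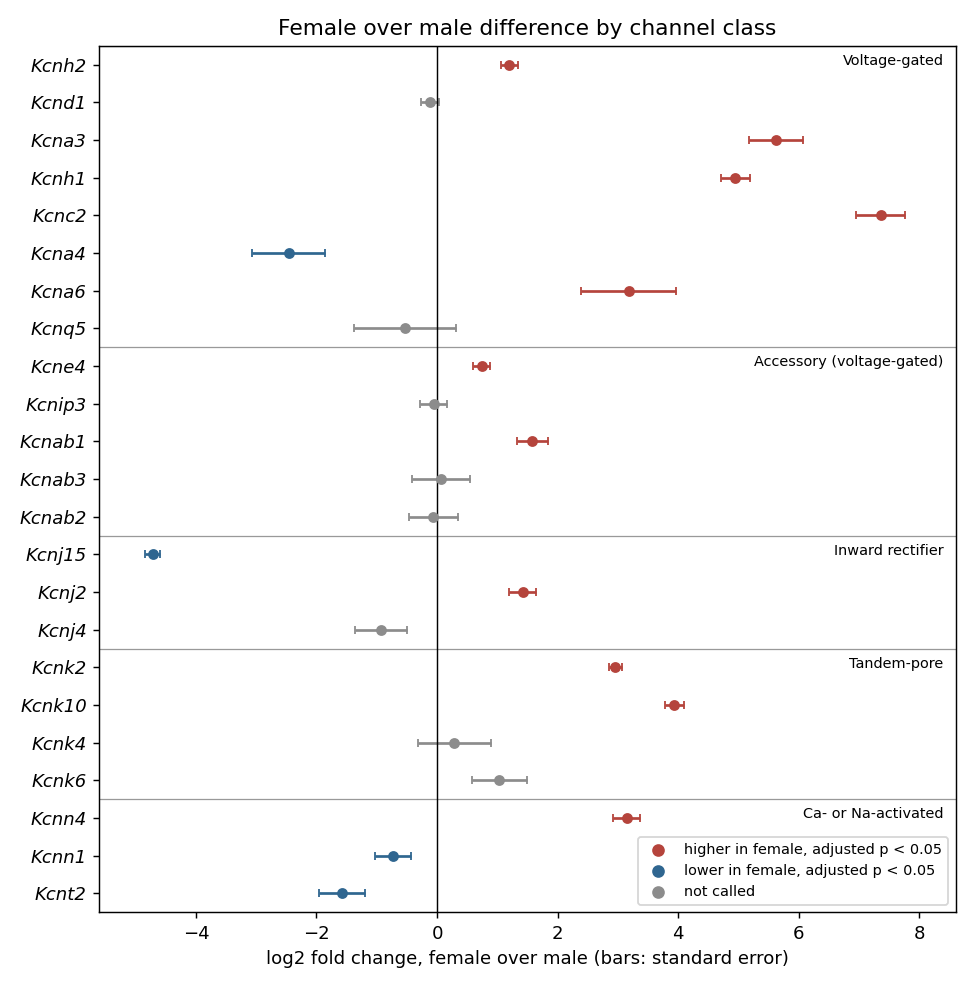
Log2 fold change of female over male cells (x axis) with its standard error for 23 of the 25 tested potassium channel genes by class; red is higher and blue lower in female cells at an adjusted p under 0.05, grey is not called. Estimates run from -4.72 for Kcnj15 to 7.36 for Kcnc2, and every class with at least 3 tested genes holds estimates on both sides of 0 except the K2P class.

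The inward rectifiers gave the strongest difference toward male cells. Kcnj15 (chr16:95257558-95300260), a rectifier gene of kidney and other epithelia, was at 132, 137 and 130 CPM in the male libraries and at 6.28, 4.20 and 4.61 in the female libraries. The male values lay close together and no female value came near them, with a log2 fold change of -4.72 ± 0.13 (edgeR adjusted p = 8.11e-15). In CPM per kilobase Kcnj15 was at 21.1 in male cells, the highest of the 91 genes there, and at 0.797 in female cells. Kcnj2 (chr11:111066164-111076821), the classical strong rectifier of endothelium and heart, went the other way. It was at 12.2, 10.3 and 8.67 CPM (female) and 3.70, 2.82 and 5.06 CPM (male) (log2 1.42 ± 0.23, edgeR adjusted p = 3.84e-05). Kcnj4, a related strong rectifier gene, was at 1.11 ± 0.435 CPM in cells of females and 2.13 ± 0.624 in those of males and was not called (log2 -0.93 ± 0.43, edgeR adjusted p = 0.0718), although with library totals as the only scaling it was called lower (0.0448). The other 11 rectifier genes were not testable, 7 of them at 0 counts throughout.

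The K2P class was led by its mechanically gated TREK members, and both were much higher in female cells. Kcnk2 (chr1:189207930-189402273), the TREK channel gene gated by stretch, lipids and heat, was at 70.4, 72.8 and 67.5 CPM (female) and 8.01, 9.83 and 9.29 CPM (male). The female values were tightly grouped and all above the male ones (log2 2.96 ± 0.11, edgeR adjusted p = 4.56e-13). An antisense gene, A430027H14Rik, shares 12.2% of the exonic bases of Kcnk2. It had 15, 23 and 7 counts in female and 1, 0 and 0 in male libraries. Kcnk2 had 1332 to 1457 counts in female libraries, and the part of antisense reads in them was not tested. Kcnk10 (chr12:98429437-98578310), its closest relative, was at 74.1, 50.3 and 66.4 CPM (female) and 4.32, 4.79 and 3.41 CPM (male) (log2 3.94 ± 0.16, edgeR adjusted p = 2.2e-12). The third member of that subfamily, Kcnk4, was barely read, at 0.532 ± 0.0862 and 0.441 ± 0.277 CPM, and was not called. In GENCODE M21 Kcnk4 shares 13.2% of its 4465 exonic bases with Catsperz on the same strand. The deposited gene model has 1715 bases, so the shared part of the counted model was not determined, and the Kcnk4 level is uncertain. Kcnk6 was at 1.497, 1.38 and 1.22 CPM (female) and 0.711, 0.756 and 0.535 CPM (male), not overlapping yet not called (log2 1.03 ± 0.45, edgeR adjusted p = 0.0583). It was called higher once genes averaging under 1 CPM were dropped (0.0416) and with the gene length correction (0.0493). Kcnk3, the acid-sensitive channel gene of pulmonary artery muscle, had 5 counts over all 6 libraries.

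Of the calcium- and sodium-activated genes, Kcnn4 was higher and Kcnn1 and Kcnt2 lower in female cells. Kcnn4 (chr7:24370263-24386690), the intermediate-conductance channel gene of endothelium and of dividing cells, was at 10.7, 14.5 and 13.9 CPM (female) and 1.66, 1.56 and 1.19 CPM (male). The groups were well separated, with a log2 fold change of 3.15 ± 0.22 (edgeR adjusted p = 2.75e-09). Kcnt2, a sodium-activated channel gene, was at 0.869, 1.18 and 0.963 CPM (female) and 3.22, 2.02 and 3.74 CPM (male) (log2 -1.58 ± 0.38, edgeR adjusted p = 0.00157). Kcnn1, a small-conductance channel gene, was at 2.56, 1.79 and 2.74 CPM (female) and 4.88, 3.33 and 3.58 CPM (male) (log2 -0.73 ± 0.29, edgeR adjusted p = 0.0403). That call was lost without female replicate 1 (0.0635), female replicate 2 (0.128), male replicate 1 (0.19) or male replicate 3 (0.0531), and with the replicate block (0.0519).

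The channel genes that mark endothelium and smooth muscle in the intact wall were otherwise scarce. Kcnn3, the small-conductance channel gene of native endothelium, had 13, 3 and 4 counts in female and 9, 3 and 15 in male libraries. Kcnma1 had 22, 1 and 15 counts in female and 4, 4 and 2 in male libraries, was not testable, and was called higher only when female replicate 2 was left out (log2 2.52, edgeR adjusted p = 0.00932). Its smooth muscle partner Kcnmb1 had 1 count over all 6 libraries, and the 4 Kcnmb genes together summed to at most 0.531 CPM in any library. Kcna5, a channel gene of vascular muscle, had 2 counts, both in male replicate 1. Smooth muscle markers summed to 60.9 to 65.2 CPM in female and 155 to 168 in male libraries, of which Myocd had 0 counts and Smtn and Acta2 made up most.

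Below the filter, 10 genes had counts in female libraries only and 7 in male libraries only, with no count above 13. Kcna1 was read 9, 13 and 10 times in female libraries, never in a male one, and was at least 3.86-fold higher against 3 counts per library. Kcnv2, a silent modifier subunit gene, was read 7, 6 and 3 times in male libraries and never in a female one, at least 1.68-fold higher on the male side. Without a low-count filter Kcna1 and Kcnip4 were called higher and Kcnv2 lower (edgeR adjusted p = 0.000649, 0.0458 and 0.0389). Kcnk5, Kcnip4 and Kcnrg were each called higher only in some fits that left out 1 library or lifted the filter.

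When levels were added up per kilobase, a different gene led the mean of each sex. The 91 genes summed to 72.0, 69.0 and 73.1 CPM per kilobase for females and 48.8, 46.6 and 46.4 for males. In female cells Kcnk2 gave 19.9% of the mean sum, Kcne4 18.2%, Kcnh2 13.2% and Kcnk10 10.2%, and these 4 together made 61.5%. In male cells Kcnj15 alone gave 44.6%, followed by Kcne4 at 16.4%, Kcnh2 at 8.68% and Kcnd1 at 6.68%. Kcnj15 was the leading gene in each male library, with 42.8% to 46.7% of the sum. Among female libraries Kcnk2 led in replicates 1 and 2, whereas in replicate 3 Kcne4 led with 20.0% against 18.7% for Kcnk2. The K2P class summed to 21.5 to 23.6 CPM per kilobase in female and 2.60 to 3.20 in male libraries, and the inward rectifiers to 2.85 to 3.90 and 22.4 to 23.2. Such sums depend on the gene model lengths in the table, and RNA levels are not channel currents.

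**Figure D4:**
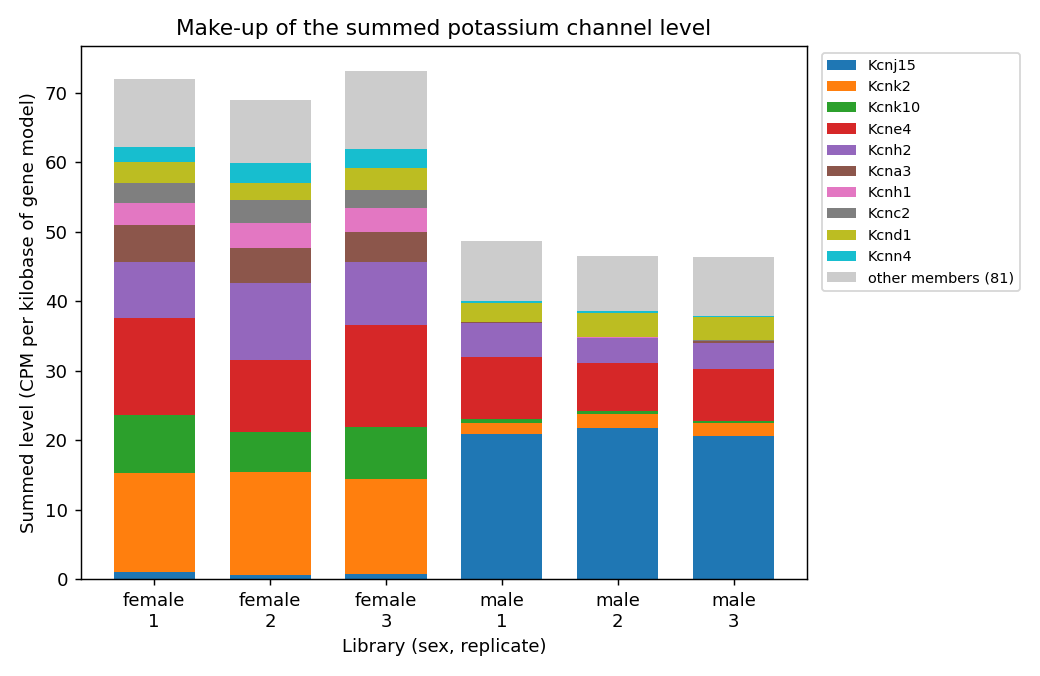
Summed level of the 91 potassium channel genes in each library (y axis, CPM per kilobase of gene model), stacked by gene for 10 genes and for the other 81 together. Kcnj15 fills 42.8% to 46.7% of each male bar, while Kcnk2, Kcne4, Kcnh2 and Kcnk10 fill most of each female bar.

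Partners and ion transporters outside the Kcn name were read beside the channels. Of 9 partner genes 3 could be tested and were called higher in female cells, while over all tested genes 60.7% were called, 30.9% higher and 29.8% lower. Abcc9 had 2 counts in each male library and passed the filter only through the female libraries, so its direction was fixed, and the counts and medians of these lists support nothing. The 3 partners were Abcc9, a sulphonylurea receptor subunit of ATP-sensitive channels (log2 4.67, edgeR adjusted p = 5.54e-06), Amigo1, a membrane partner of delayed rectifier channels (0.80, 0.000354), and Dpp6, a partner of A-type channels (0.94, 0.00317). Abcc8, the sulphonylurea receptor that pairs with Kcnj11, had 0 counts in all 6 libraries, as did Kcnj11. Of 14 tested pump and cotransporter genes 7 were higher, 3 lower and 4 not called, with a median log2 fold change of 0.27. The share called in either direction was near that over all tested genes, but higher calls outnumbered lower ones. Of the beta subunit genes of the sodium pump Atp1b1 was higher (2.68), and Atp1b2 (-1.54) and Atp1b3 (-0.48) were lower. Of 18 tested genes of cation and calcium entry 9 were higher, 3 lower while 6 were not called (median log2 fold change 0.57). Again only the share called in either direction was near that over all tested genes, with more calls higher than lower. Piezo1, the mechanically gated cation channel gene, was at 618 ± 112 CPM in cells of females and 172 ± 11.5 in those of males (log2 1.84, edgeR adjusted p = 2.45e-10). The pacemaker channel gene Hcn2 was lower (log2 -2.72).

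Markers of other cell types differed between the sexes along with the channels, and their part in the channel differences was not tested. Over all tested genes 60.7% were called, 30.9% higher and 29.8% lower, and whether these short lists depart from that share was not tested. Some markers, Abcc9 of the pericyte list among them, had few or no counts in 1 sex and passed the filter through the other. Their direction was largely fixed, so the counts of calls below support nothing. Of 10 fibroblast markers 6 were higher, 3 lower and 1 not called. Of 4 tested smooth muscle markers 3 were lower and 1 not called. Of 7 tested pericyte markers female cells had 3 higher and 4 lower, and Higd1b had 0 counts. The list summed to 450 to 468 CPM in female and 761 to 799 in male libraries. That sum does not stand for the list, whose members went both ways and were at unlike levels. Of 8 neuronal and glial markers 3 were tested, 1 higher (Snap25) and 2 lower (Tubb3 among them). Their sum was 69.4 to 76.8 CPM in female and 37.1 to 45.3 in male libraries, and Sox10 and Rbfox3 had 0 counts in every female library. Of the 6 leukocyte markers Ptprc, Adgre1 and Cd3e had 0 counts in all libraries, and the list summed to 5.12 to 7.33 CPM in female and 2.66 to 4.15 in male libraries. In bulk RNA, fewer cells of a type and less RNA per cell cannot be told apart.

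Promoter sequence was compared as a feature that the selection did not use. RefSeq start sites on GRCm38.p6 were found for 68 of the 91 genes, and the CG dinucleotide, which reads the same on both strands, was counted in the 250 bases before each start. The median was 9.5 in 20 tested channel genes and 8.5 in 48 that were not tested. Over all protein-coding genes it was 16.0 in the 9913 tested and 3.0 in the 6584 not tested. The promoters of the gene with the strongest difference toward male cells and of 2 genes read mostly in female cells, all with a single listed start, are shown 5′ to 3′ with each CG in capitals.
Kcnj15: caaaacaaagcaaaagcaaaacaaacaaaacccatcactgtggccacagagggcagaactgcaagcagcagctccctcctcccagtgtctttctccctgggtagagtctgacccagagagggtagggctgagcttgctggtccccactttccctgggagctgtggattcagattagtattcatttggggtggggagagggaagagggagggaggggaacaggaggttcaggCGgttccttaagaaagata
Kcna3: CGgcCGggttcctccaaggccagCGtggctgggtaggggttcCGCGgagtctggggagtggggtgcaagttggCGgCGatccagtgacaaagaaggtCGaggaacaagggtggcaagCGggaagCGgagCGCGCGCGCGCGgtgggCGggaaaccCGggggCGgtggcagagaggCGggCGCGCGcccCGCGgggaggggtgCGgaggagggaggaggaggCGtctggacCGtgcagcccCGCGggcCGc
Kcnh1: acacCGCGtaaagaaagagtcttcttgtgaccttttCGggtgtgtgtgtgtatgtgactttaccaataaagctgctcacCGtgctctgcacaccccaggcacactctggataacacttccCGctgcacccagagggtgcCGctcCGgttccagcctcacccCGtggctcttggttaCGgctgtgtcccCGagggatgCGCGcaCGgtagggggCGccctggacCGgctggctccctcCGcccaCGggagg
The Kcnj15 promoter (chr16:95257308-95257557, plus strand) held 1 CG, and 18.8% of the 32851 listed windows held that many or fewer. That of Kcna3 (chr3:107035912-107036161, plus strand) held 31, a number that 5.19% of windows reach. The Kcnh1 promoter (chr1:192190527-192190776, plus strand) held 17, reached by 23.5%. Kcna3 and Kcnh1 held the most CG of the single-start genes called higher in female cells, so they do not stand for that group. Kcnh2 and Kcnj2 held 14 each and Kcne4 held 7. Promoters of genes higher in female cells were not all rich in CG, since Kcnc2 averaged 4.0 over its 4 listed starts and Kcnn4 held 6.0. Nor were those of genes lower in female cells all poor in CG, with 14 in Kcna4, 10 in Kcnt2 and a mean of 9.0 over the 2 starts of Kcnn1.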

How the data were processed

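Polyadenylated RNA of Oct4 KO cells was sequenced in 3 female and 3 male libraries. Reads were processed with HISAT2 2.0.5 and featureCounts 1.5 on mm10, per the submitters' processing notes, and the deposited values are raw counts per gene. The gene model length in bases and the coordinates are those of the deposited table. Whether strand was used and how multi-mapping reads were treated was not stated by any source at hand. Each column was matched to its sample by library name, with 0 unmatched sample columns and 0 unnamed rows.

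The model was edgeR 4.0.16 in R 4.3.3 (quasi-likelihood test, sex only, after filterByExpr and TMM). Its two-sided p-values were adjusted by Benjamini-Hochberg across the 14814 genes tested. Each SE was derived as |log2 fold change|/√F. Total counts were 19299742 to 23064738. Chi-square per degree of freedom between replicates was 7.00 to 14.7, above the sampling level of 1. The fit was tested on simulated data with known changes, set in genes drawn from the better-read ones. It recovered 79 of 100 genes changed 2-fold and 98 of 100 changed 4-fold, and called 18 of 14283 unchanged genes. The simulation changed far fewer genes than were called in the data and took its spread from these same libraries. It therefore does not test false calls from differences between mice or cultures.

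The members, lists and tests were chosen with earlier results of these data known. By rule, any tested member could be named, with full values for the 6 per class with the highest mean CPM per kilobase and for every call of at least 2-fold, and for each other list the 4 genes with the smallest adjusted p and defining markers at 0. Atp1b2, Atp1b3 and the untested members were named after their values were seen. Some genes counted in the totals are not reported here by name. Alternatives used RLE, upper quartile or no scaling, DESeq2 1.42.0, limma-voom 3.58.1, other filters, a replicate block, a gene length correction and each library left out.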

Additional observations from a re-analysis of the deposited data

How the results depend on the processing

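The fold change of each of the 25 tested channel genes was recomputed under 15 alternatives, or 13 to 14 where a filter removed the gene. No called direction reversed. Of the 17 calls, 15 held in every alternative that tested the gene. The other 2, Kcnn1 among them, were lost in some fits, and Kcnk6 and Kcnj4 gained a call in some. The number of channel genes called lower, 5 with all libraries, was 3 to 5 when 1 library was left out, with 3 without female replicate 1, male replicate 1 or male replicate 3. The number called higher was 12 with all libraries and 13 to 15 with 1 left out. In the latter fits the filter passed 27 to 32 channel genes rather than 25, so the sets of genes differ. With the replicate block, 12 were higher and 4 lower, and apart from Kcnn1 the block changed no call of a channel gene. Same-numbered libraries did not deviate together (correlations -0.02, -0.11 and -0.16 across 10812 genes), so the numbers were not taken to pair them. Female and male libraries with different numbers correlated at -0.07 to 0.19, the highest being female replicate 3 with male replicate 2. With library totals alone the median of all genes shifted to -0.13 and the calls over all genes became 3956 higher and 5294 lower, against 4580 and 4413. With upper quartile scaling they were 4170 and 4990. Depth limits the 41 genes read but not tested, and the 25 at 0 counts are bounded only by the 0.123 to 0.154 CPM that a count of 0 allows.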
